A study of Mus musculus with 24 samples.

Results

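The lung miRNAs of C57BL/6 mice at postnatal day 14 were compared with those at postnatal day 1. Total RNA of whole lung was hybridised to 1-colour Agilent miRNA arrays, 5 arrays labelled 2 weeks (written here as day 14) and 5 arrays labelled day 1, each given by the labels as a biological replicate of its own. The mice were healthy, and the labels give the same strain and tissue for every array and no treatment, genotype, sex or litter. The series as a whole holds 24 arrays, the others from day 4, day 7 and 6 weeks (day 42), and the study followed these ages to describe lung miRNAs after birth. Its title speaks of fetal lungs, but its design text and all labels give ages after birth, and these were used. Of the 611 mouse miRNA names on the array, the 303 flagged as detected on all 5 arrays of at least 1 of these ages were tested. A name is a miRNA arm as the array's design spells it, and an asterisk marks the arm that the older naming took for the minor one.

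A miRNA is a short RNA that guides a silencing complex to messenger RNAs, mainly through its seed, bases 2 to 8 counted from its 5′ end. Members of a family share a seed and therefore most of their predicted targets, although they can come from different chromosomes and be transcribed apart. In mice the lung is born with simple air sacs and divides them into alveoli over the first weeks of life, while growth slows, the capillary bed is remodelled and blood cells settle in the tissue. Several imprinted miRNA clusters, above all the one in the Dlk1-Dio3 region, which is read from the maternal chromosome, are active in growing fetal and newborn tissue.

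The sequences below are shown because the comparison turns on them, with the seed in capitals, as RefSeq gives them for build GRCm38.p6. The first 3 are the miR-29 family, which shared the seed AGCACCA and rose together.
miR-29a: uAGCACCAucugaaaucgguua
miR-29b: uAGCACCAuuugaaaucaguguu
miR-29c: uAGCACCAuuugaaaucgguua
The next 6 all carried the seed AGCAGCA but did not move together, since 3 rose, 2 fell and miR-16 did not pass the test.
miR-195: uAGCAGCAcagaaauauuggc
miR-497: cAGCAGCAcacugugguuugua
miR-15a: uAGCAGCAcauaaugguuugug
miR-16: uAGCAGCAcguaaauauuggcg
miR-15b: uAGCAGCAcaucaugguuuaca
miR-322: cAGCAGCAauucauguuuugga
The seed CCCUGAG was shared by miR-125b-5p, which rose, and by miR-125a-5p and miR-351, which fell.
miR-125b-5p: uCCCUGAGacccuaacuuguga
miR-125a-5p: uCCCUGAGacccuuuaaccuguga
miR-351: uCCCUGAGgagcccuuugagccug
The last 4 stand for the imprinted miRNAs, 3 from the Dlk1-Dio3 region and miR-675-3p, which is cut from the H19 transcript, and their seeds differ from one another.
miR-433: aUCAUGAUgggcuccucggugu
miR-127: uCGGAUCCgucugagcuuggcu
miR-409-3p: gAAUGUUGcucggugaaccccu
miR-675-3p: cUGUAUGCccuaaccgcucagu
The mature miR-29a lies at chr6:31062673-31062694 on the minus strand and miR-29c at chr1:195037600-195037621 on the plus strand, while miR-29b is encoded both beside miR-29a on chromosome 6 and beside miR-29c on chromosome 1. Close neighbours on the plus strand of chromosome 11 are miR-195 (chr11:70235062-70235082) and miR-497 (chr11:70234730-70234751). The miR-322 and miR-351 arms lie on the minus strand of the X chromosome at chrX:53054306-53054327 and chrX:53053315-53053338. On chromosome 12 the plus strand holds miR-433 (chr12:109591781-109591802), miR-127 (chr12:109592888-109592909) and miR-409-3p (chr12:109743204-109743225), and miR-675-3p lies on the minus strand of chromosome 7 (chr7:142577078-142577099).

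Arrays differed in brightness, read as the upper quartile of the unscaled signals of the 226 names that all 24 arrays detected. It was 581 to 1374 intensity units at day 1 and 1442 to 3076 at day 14. Day 14 was 2.12-fold brighter (exact permutation test, two-sided p = 0.00794, the smallest that 5 against 5 arrays can give), so brightness and age moved together, and its part in the changes below was not tested other than by the values given beside them. An array of day 14 detected 319 ± 16.1 miRNAs and one of day 1 detected 301.4 ± 27.5 (SD, n = 5 each), which is within the spread (two-sided p = 0.27 by the same exact permutation test). Some arrays stood apart. The dimmest were day 1 replicates 4 and 5, and day 1 replicate 2 carried far more striated muscle miRNA than the other 9 arrays. Day 14 replicate 5 lay closer to the mean of the day 7 arrays (root mean square distance 0.459 on the log2 scale) than to that of the other day 14 arrays (0.655), and day 1 replicates 2 and 3 also lay closest to the day 7 mean and day 1 replicate 4 to the day 4 mean, so that 3 of the 5 day 1 arrays lay nearest another age. Within day 14 the arrays correlated at 0.976 to 0.997 over the tested names, within day 1 at 0.889 to 0.990 and between the ages at 0.855 to 0.970. The arrays lay on 3 slides, each with both ages. Slide 2 held 1 array of each of these ages, replicate 2 of both, so a difference within slide 2 is that of a single pair. Slide 3 held day 14 replicate 5.

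Every value given for an array below is a scaled intensity, in the order of the labels' replicate numbers 1 to 5. Differences are day 14 minus day 1 on the log2 scale with the standard error (SE) of the fit over all 24 arrays, folds are the same differences on the linear scale, and adjusted p is that of limma with Benjamini-Hochberg adjustment over the 303 names. In whole lung, fewer cells of a type and less RNA per cell cannot be told apart.

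Between birth and 2 weeks, 162 of the 303 tested miRNAs changed (53.5%), 67 upward (22.1%) and 95 downward (31.4%). Counts of rises and falls within the lists below are to be read against these shares. The large changes leaned downward. At least 2-fold, 79 changed (26.1%), of which 25 rose (8.25%) and 54 fell (17.8%), and 34 of those 54 came from the Dlk1-Dio3 region. The arrays of both ages did not overlap at all for 104 names (34.3%), 42 of them higher at day 14 (13.9%) and 62 lower (20.5%). The median difference of all tested names was -0.10. The split between rises and falls depended on the scaling. Rises were 41.4% of the calls here, 52.2% when arrays were scaled to their median, 57.9% after quantile normalization, 45.6% after cyclic loess, 59.7% in the deposited table and 64.8% when the percentile was taken over all mouse names, and the median difference was then 0.00, 0.16, 0.04, 0.19 and 0.22. Without any scaling it was 85.9% with a median of 0.95, and with normexp background correction 64.2% with a median of -0.54.

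**Figure D1:**
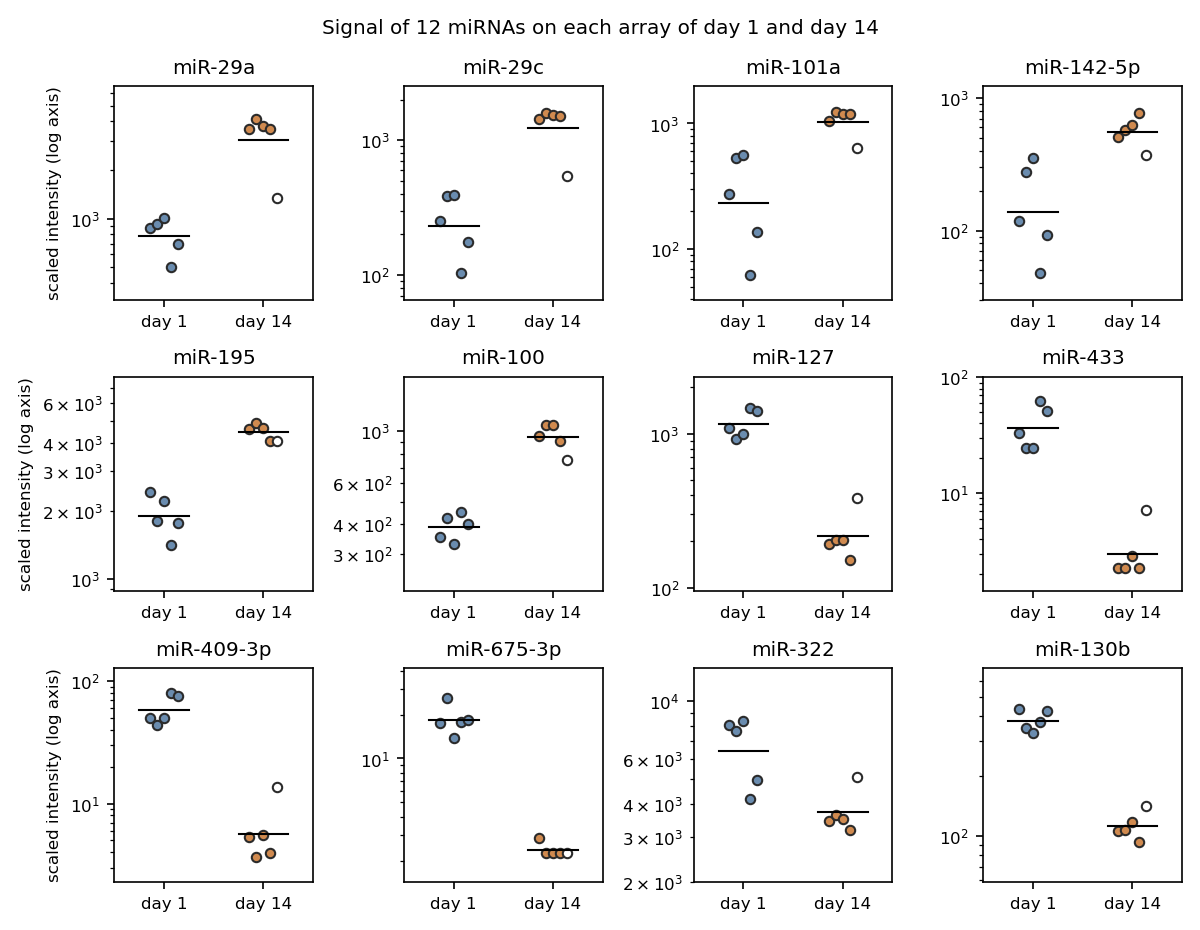
Scaled intensity on a log axis of 12 miRNAs on each array, with day 1 in blue and day 14 in orange; bars are group means of the log2 values, and the open circle is day 14 replicate 5. The groups are apart for 11 of the 12 miRNAs and touch for miR-322, where day 14 replicate 5 (5115) lies among the day 1 arrays.

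Falling together, the miRNAs of the Dlk1-Dio3 region formed the longest list of falls in the comparison. The region is an imprinted stretch of chromosome 12 whose miRNAs are made in growing tissue and in the brain. Of its 74 names on the array, 48 were detected on at least 1 of the 10 arrays and 36 were tested. Of the 36, 35 fell and none rose, against 31.4% falls among all tested names. All day 1 arrays detected 35 of the 36 and all day 14 arrays 29, so some passed the filter only through day 1, where they were higher. Among all tested names, 12 passed only through day 1 and 44 only through day 14. Of the 28 names detected on all 10 arrays, 27 fell, with a median of -2.06. The median difference of the 36 was -2.11, against -0.10 over all tested names, and it stayed between -1.13 and -2.22 under the other scalings and background correction, with brightness in the model and without the dim arrays, except -1.03 without scaling. The count of falls depended on the processing, with 12 called under normexp background correction (median -1.13), 24 without scaling, 32 after quantile normalization and 33 in the deposited table. It was 34 with the percentile over all names or with median scaling, 35 after cyclic loess, with brightness as a covariate or without the dim arrays, and 34 or 35 when any single array was left out, and none rose in any of these. For 30 of the 36, no day 14 array reached the lowest day 1 array. Summed over the list, signal ranged from 7589 to 8593 at day 1 and from 1780 to 3382 at day 14.

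miR-433 had the lowest fitted difference of all tested names. It read 32.8, 24.5, 24.7, 62.9 and 50.8 at day 1 and 2.27, 2.27, 2.86, 2.27 and 7.14 at day 14. Only day 14 replicate 5 was flagged as detected at that age, 3 of the others stood at the floor of 2.27, and all 5 lay far under the day 1 arrays. The fitted difference was -3.60 ± 0.31 (adjusted p = 2.10e-09), and its size depends on the floor, being -2.87 with a floor 2 times as high and -3.88 with a floor at 1 unit. With normexp it was -1.07 (adjusted p = 0.173) and did not pass. miR-409-3p, from the far end of the region, read 49.7, 43.8, 50.1, 80.2 and 75.8 at day 1 and 5.35, 3.63, 5.57, 3.96 and 13.8 at day 14. Again the groups were well apart, with replicate 5 the highest at day 14 and the only one flagged as detected there. The fitted difference was -3.35 ± 0.28 (adjusted p = 1.92e-09), set against day 14 signals of which 4 of 5 were not detected, and with normexp it was -1.14 (adjusted p = 0.135) and did not pass.

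miR-127, which is transcribed antisense to the growth gene Rtl1 and cuts its message, was bright on every array. Its values were 1096, 917, 992, 1459 and 1409.5 at day 1 and 191, 203, 203, 151 and 383 at day 14. All day 14 arrays lay under all day 1 arrays by a wide gap, and replicate 5 stood nearest to day 1. The difference was -2.43 ± 0.25 (5.37-fold lower, adjusted p = 3.56e-08). miR-431, another of the Rtl1 antisense miRNAs, was almost the same on all day 1 arrays, with 144.3, 139.9, 139.9, 137 and 139 at day 1 and 14.3, 15.4, 15.8, 11.7 and 39.2 at day 14. The difference was -3.01 ± 0.25 (8.05-fold lower, adjusted p = 1.73e-09).

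The members varied in how far they fell. Other large falls were miR-434-3p (-2.44 ± 0.27), miR-411* (-3.07 ± 0.26), miR-541 (-3.02 ± 0.29), miR-410 (-2.71 ± 0.26), miR-154* (-2.62 ± 0.26) and miR-496 (-2.62 ± 0.20). miR-543 and miR-134 were detected on all 5 arrays at day 1 and on none at day 14, and were at least 6.99-fold and at least 3.86-fold lower there, each from the mean log2 value of the detected age against the higher, on each day 14 array, of the detection limit and the miRNA's own signal. For both the own signal was the higher, so the bound equals the fitted fold. Smallest of the falls was that of miR-494, which read 621, 544, 667, 1169 and 1289 at day 1 and 483, 513, 373, 546 and 559 at day 14. Here the groups overlapped, the difference was -0.72 ± 0.26 (1.65-fold lower, adjusted p = 0.0236), and the call was lost without day 1 replicate 4, without day 1 replicate 5 or without day 14 replicate 3 (adjusted p up to 0.0843). With array brightness as a covariate its difference was 0.16.

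The exception was miR-136. It read 226, 686, 824, 71.7 and 124.3 at day 1 and 94.2, 96.6, 126.02, 123 and 201 at day 14. Of the dim day 1 arrays, replicate 4 lay under the range of day 14 and replicate 5 within it, and the other day 1 arrays lay above it. The difference was -1.07 ± 0.60 (adjusted p = 0.133, 95% confidence interval -2.31 to 0.18), and it became -2.03 without the dim arrays (adjusted p = 0.00739) and -3.07 with brightness as a covariate (adjusted p = 1.56e-05). Leaving out day 1 replicate 4 alone also brought it past the threshold, while the opposite arm, miR-136*, passed in the main fit (-1.35 ± 0.33).

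**Figure D2:**
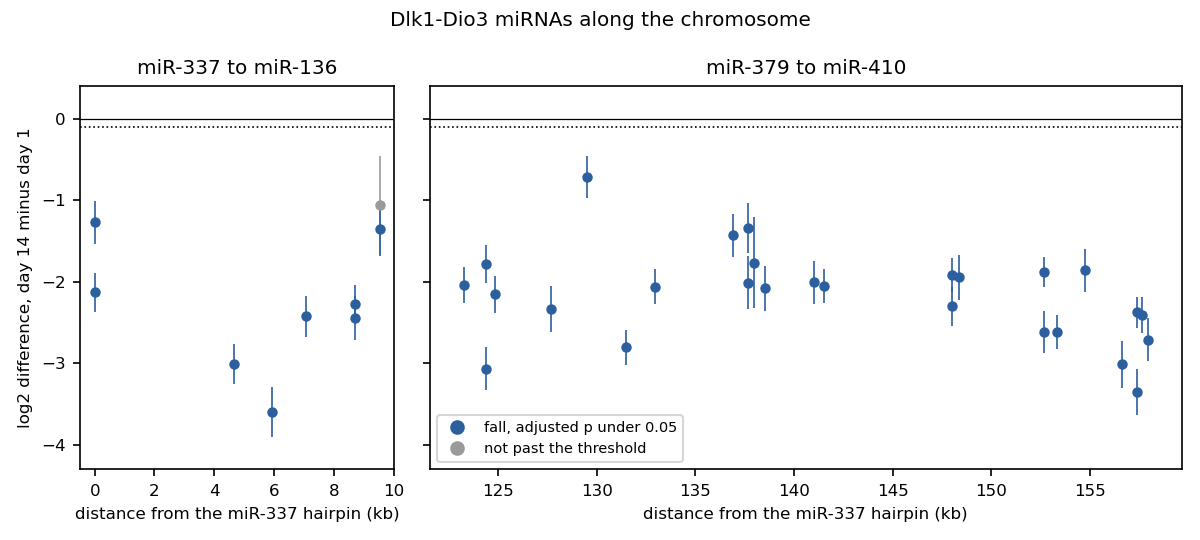
log2 difference, day 14 minus day 1, of the 36 tested Dlk1-Dio3 miRNAs against the distance of their hairpin from the miR-337 hairpin in kb, with bars of 1 SE; the dotted line is the median of all tested names (-0.10). All but miR-136 fell, and both groups of hairpins lie at similar depth (medians -2.27 and -2.06).

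Along the chromosome, the falls were found in both groups of hairpins. The tested hairpins form a group of 6, from miR-337 to miR-136 (chr12:109585789-109595388), and a group of 22 further along, from miR-379 to miR-410 (chr12:109709060-109743795). In the first group, 8 of 9 names fell with a median of -2.27, and in the second 27 of 27 with a median of -2.06. After miR-494 and miR-136, the next smallest difference was that of miR-337-3p (-1.27 ± 0.26), in the first group.

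Day 14 replicate 5 was the highest of the day 14 arrays for all 36 Dlk1-Dio3 names. Without it the list's median was -2.32 and the same number, 35, fell. Without that array and both dim day 1 arrays the median was -2.43, again with 35 falls. Within slides 1, 2 and 3 the median was -2.58, -2.43 and -1.74, that of slide 2 from a single array of each age. On the whole scale of ages, stepwise falls were about as frequent in this list as among all falls. For 25 of the 35, and for 65 of all 95 falls, which include them, the mean dropped at each step from day 1 to day 4, day 7 and day 14. All of these names were picked for their fall between day 1 and day 14. In 35 of the 36 names the mean was lower at day 42 than at day 14. miR-127, for instance, averaged 1174, 767, 557, 226 and 70.4 at day 1, 4, 7, 14 and 42.

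The miRNAs of the imprinted hosts H19, Igf2 and Mest fell as well, whereas among the 14 tested names of the Sfmbt2 cluster, also in an imprinted gene, 1 rose and none fell. All 4 tested arms of miR-675 (from H19), miR-483 (from Igf2) and miR-335 (from Mest) fell, with a median of -1.78. miR-675-3p read 17.5, 26.0, 13.9, 17.8 and 18.2 at day 1 and 2.84, 2.27, 2.27, 2.27 and 2.27 at day 14. Every day 1 array detected it, whereas at day 14 none did and 4 arrays stood at the floor. The fitted difference was -2.95 ± 0.14 (adjusted p = 1.07e-13), and its size depends on the floor. The floor gave 4 day 14 arrays the same value, so this SE and adjusted p do not fully measure the spread between arrays. None of the 4 probes of miR-675-3p reached a mean of 4 times the floor at either age. The fall was at least 7.22-fold against the detection limit, the means being 18.7 and 2.38.

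The arms of miR-335 fell unequally. miR-335-3p read 110.2, 107, 149, 135 and 184 at day 1 and 20.6, 18.1, 17.0, 17.3 and 52.8 at day 14, so that the groups did not overlap and replicate 5 again stood highest at day 14. The difference was -2.58 ± 0.27 (5.98-fold lower, adjusted p = 3.56e-08). For miR-335-5p it was -0.98 ± 0.18 (1.97-fold lower, adjusted p = 1.02e-04), with day 1 replicate 4 (1225) inside the day 14 range. miR-483 fell by 0.65 on the log2 scale (adjusted p = 0.0327), a call lost in 6 of the 10 fits that leave out 1 array (adjusted p up to 0.109): those without day 1 replicate 1, 4 or 5 or day 14 replicate 1, 3 or 4.

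The X-linked miR-322 cluster, known from muscle differentiation and growth arrest and regulated with the cell cycle, changed in part. Of 10 tested names, 4 fell (both arms of miR-322, miR-351 and miR-503), not far from the 31.4% of all tested names that fell. The 6 arms of miR-450a, miR-450b and miR-542 did not pass. The median of -0.23 turned positive under the all-name percentile (0.09), quantile (0.22), cyclic loess (0.12), deposited (0.23) and unscaled (0.85) values. miR-322 read 8121, 7684, 8413, 4205 and 4946 at day 1 and 3433, 3627, 3492, 3189 and 5115 at day 14. The day 14 arrays lay under the day 1 arrays except for replicate 5, which overlapped the dim day 1 arrays. The difference was -0.79 ± 0.18 (1.73-fold lower, adjusted p = 8.56e-04), but 0.29 without scaling. miR-351 read 61.9, 54.7, 63.4, 90.5 and 90.05 at day 1 and 15.2, 17.3, 14.2, 15.6 and 43.4 at day 14. Here the groups were apart and replicate 5 was again the outlying day 14 array. The difference was -1.89 ± 0.28 (3.70-fold lower, adjusted p = 5.70e-06), and -2.18 without that replicate. miR-503 fell by 0.84 on the log2 scale (adjusted p = 0.0431), a call that 7 of the 10 left-out arrays end (day 1 replicates 1, 2 and 3 and day 14 replicates 1 to 4, adjusted p up to 0.119). The neighbours miR-450a-5p (0.65 ± 0.30, adjusted p = 0.0734) and miR-542-3p (0.58 ± 0.33, adjusted p = 0.131) had positive differences.

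In the miR-17-92 cluster and its relatives, which are switched on by Myc and E2F in dividing cells, 8 of 14 tested names fell and none rose, with a median of -0.42 (0.66 without scaling). miR-17 read 77.9, 69.8, 81.9, 77.6 and 86.6 at day 1 and 44.4, 52.3, 45.7, 39.1 and 54.6 at day 14. The groups did not overlap. The difference was -0.74 ± 0.13 (1.68-fold lower, adjusted p = 3.00e-05), 0.34 without scaling. miR-18a fell further (-0.90 ± 0.26, adjusted p = 0.00616), although its dim day 1 arrays (148 and 236) lay inside the day 14 range of 137 to 239, and the difference was -1.36 without them. miR-106b* fell by 2.01 on the log2 scale (adjusted p = 6.58e-07), while the other arm of the same hairpin, miR-106b, had 0.37 ± 0.25 (adjusted p = 0.196). miR-19a (0.09 ± 0.38), miR-19b (-0.10 ± 0.21), miR-20b, miR-25 and miR-20a* also did not pass.

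The family of miR-130 and miR-301, studied in lung vessels and in development, had 3 falls among 4 tested names and a median of -1.05 (0.03 without scaling). miR-301b read 29.03, 34.2, 27.7, 18.3 and 26.1 at day 1 and 4.34, 3.26, 6.46, 3.87 and 7.61 at day 14. It was detected on 4 of the 5 day 14 arrays, all of them far under day 1. The difference was -2.45 ± 0.19 (5.47-fold lower, adjusted p = 7.45e-10). miR-130b read 436, 350.0, 329, 373 and 424 at day 1 and 106, 107, 117, 93.8 and 141.2 at day 14, a tight pair of groups with no overlap. The difference was -1.76 ± 0.16 (3.40-fold lower, adjusted p = 4.38e-09). miR-130a, with the same seed as miR-130b, fell by 0.30 on the log2 scale (adjusted p = 0.0397), which reversed to 0.02 under the all-name percentile and to 0.78 without scaling. That call was lost without day 1 replicate 1, 3 or 5 or day 14 replicate 1, 3 or 4 (adjusted p up to 0.125).

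Among the miRNAs of mesenchymal cells, 4 of 5 tested arms of miR-199a, miR-199b and miR-214 fell, with a median of -1.10. miR-214 and the miR-199a copy on chromosome 1 come from the Dnm3os transcript of fibroblasts. miR-199a has another copy on chromosome 9, and the array does not tell the copies apart. miR-214 read 1284, 869, 869, 2344 and 1952 at day 1 and 304, 364, 271, 251 and 520.1 at day 14. The day 1 arrays spread widely, the dim ones being highest, and none overlapped day 14. The difference was -2.03 ± 0.33 (4.08-fold lower, adjusted p = 1.75e-05), -1.59 without the dim arrays and -0.82 with brightness as a covariate (adjusted p = 8.34e-04). miR-199a-5p read 2318, 2141, 2337, 1630.0 and 1887 at day 1 and 847, 942, 865, 777 and 1459 at day 14, again apart, with replicate 5 between the other day 14 arrays and day 1. The difference was -1.10 ± 0.14 (2.15-fold lower, adjusted p = 6.23e-07), and brightness as a covariate left it at -1.10. miR-199a-3p fell by only 0.33 on the log2 scale (adjusted p = 0.0236, lost without day 1 replicate 1 or 3 or day 14 replicate 1 or 4, up to 0.0764), was 0.75 without scaling, and its probe also reads the identical arm of miR-199b. miR-199b* did not pass (0.06 ± 0.12). Smooth muscle showed no fall: miR-143 (0.50 ± 0.15, adjusted p = 0.00874) and miR-145* (1.04 ± 0.30, adjusted p = 0.00615) rose and miR-145 had 0.02 ± 0.29. miR-145* was detected on only 1 day 1 array and so was tested through day 14, where it was higher. None of its 4 probes reached a mean of 4 times the floor at either age. The median of the 3, 0.50, became -0.13 with normexp, and neither rise passed with brightness as a covariate or without the dim arrays, whereas miR-145 then passed with brightness (1.01, adjusted p = 2.89e-04). The arms miR-214* (-1.21 ± 0.23, adjusted p = 1.44e-04) and miR-214 fell together.

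miR-210, which hypoxia induces through Hif1a, was chosen for naming after its values were seen. It read 312, 363, 273, 261 and 298 at day 1 and 115, 120.5, 116, 97.0 and 140.4 at day 14, with both groups narrow and apart. The difference was -1.36 ± 0.12 (2.56-fold lower, adjusted p = 4.08e-09), and it was -1.21 with brightness as a covariate. Its means at day 1, 4, 7, 14 and 42 were 301.4, 205.1, 159, 118 and 115.

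**Figure D3:**
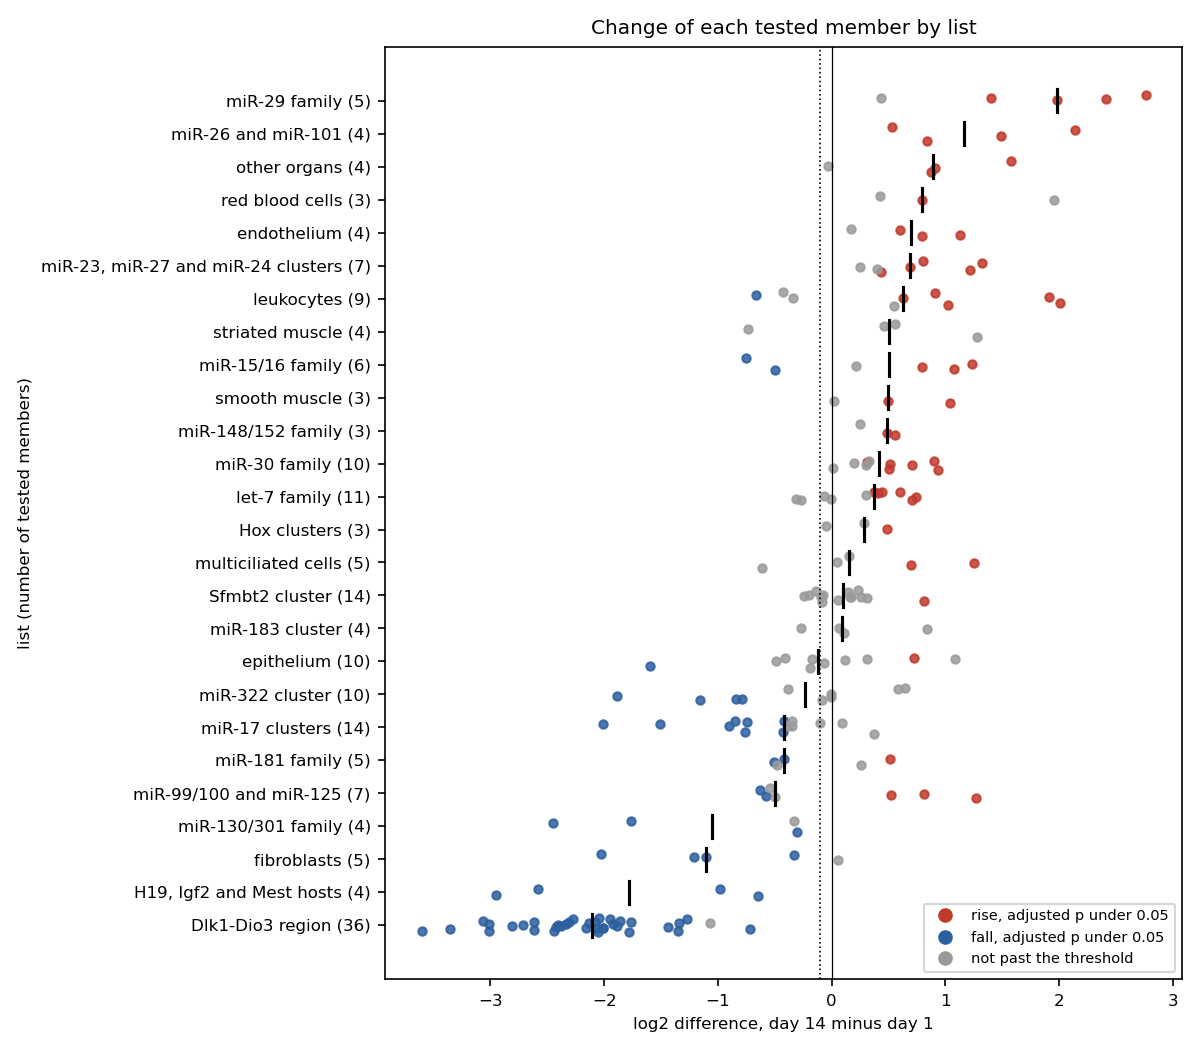
log2 difference, day 14 minus day 1, of each tested member of 26 miRNA lists, ordered by list median (black tick), with the number of tested members in brackets; the dotted line is the median of all tested names. The Dlk1-Dio3 members lie at the far left (median -2.11) and the miR-29 family at the far right (1.98).

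On the rising side the miR-29 family had the highest median of the lists examined. It silences collagen, elastin and other matrix messages and DNA methyltransferases. Of 6 arms on the array 5 were tested, 4 rose, and the median was 1.98, between 1.63 and 2.30 under the other scalings and background correction, 3.06 without scaling and 1.15 with brightness as a covariate. miR-29a read 879, 929, 1006, 498 and 691 at day 1 and 3594, 4136, 3763, 3581 and 1343 at day 14. The groups did not overlap, 4 day 14 arrays agreed closely, and replicate 5 stood between them and day 1. The difference was 1.98 ± 0.23 (3.94-fold higher, adjusted p = 1.63e-07), 2.28 without replicate 5, 1.71 without the dim arrays and 1.57 with brightness as a covariate (adjusted p = 5.16e-05).

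miR-29c read 251.7, 383, 389, 103 and 175 at day 1 and 1443, 1582, 1553, 1511 and 542 at day 14, with the same pattern. The difference was 2.41 ± 0.32 (5.33-fold higher, adjusted p = 1.46e-06), and 1.45 with brightness as a covariate (adjusted p = 3.25e-04). miR-29b read 139, 381, 495, 33.6 and 79.1 at day 1 and 1019.7, 1116, 1211, 1478 and 493 at day 14. Day 1 spread over more than a factor of 10, the dim arrays being lowest, and its highest array just passed day 14 replicate 5. The difference was 2.76 ± 0.62 (6.79-fold higher, adjusted p = 8.56e-04), with brightness as a covariate 0.54 (adjusted p = 0.324). The minor arm miR-29c* rose as well (1.40 ± 0.18, adjusted p = 6.15e-07), though it was detected on only 2 day 1 arrays and had -0.34 with normexp, and miR-29b* did not pass (0.44 ± 0.23). Averages of miR-29a at day 1, 4, 7, 14 and 42 were 801, 798, 899, 3283 and 10880.1, so that the day 7 mean was still near that of day 1.

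The let-7 family, whose members mark differentiated cells and repress Lin28, Hmga2 and Myc, rose modestly. Of 11 tested arms 6 rose and none fell, with a median of 0.37, which was 0.06 after cyclic loess. let-7c read 11184, 9108, 9073, 12844 and 12740.3 at day 1 and 18750.5, 19928, 17729, 17078 and 17440.5 at day 14, with no overlap. The difference was 0.74 ± 0.19 (1.67-fold higher, adjusted p = 0.00205). let-7b (0.71 ± 0.22), let-7g (0.60 ± 0.12), let-7f (0.44 ± 0.11), let-7i (0.41 ± 0.11) and miR-98 (0.37 ± 0.11) also rose, although let-7f had -0.03 after cyclic loess. let-7a did not pass (0.30 ± 0.15, adjusted p = 0.0826) despite groups that did not overlap, and let-7d (-0.01 ± 0.16) and let-7e (-0.27 ± 0.17) were near or under 0. Summed signal of the list was 74635 to 87362 at day 1 and 99846 to 119619 at day 14.

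The miR-30 family, abundant in lung epithelium and other differentiated cells, had 6 rises and no fall among 10 tested arms, with a median of 0.42. miR-30a read 5791, 5918, 6738, 2908 and 4137 at day 1 and 9725, 10518, 9301, 9509 and 7944 at day 14, with no overlap. The difference was 0.94 ± 0.18 (1.92-fold higher, adjusted p = 1.43e-04). miR-30b (0.71 ± 0.18) and miR-30e (0.90 ± 0.31) rose with it, the latter not without day 1 replicate 4 or 5 (adjusted p up to 0.0678) and at -0.07 with brightness as a covariate, while miR-30c (0.33 ± 0.19) and miR-30d (0.30 ± 0.17) did not pass.

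In 3 families, members that share a seed were called in opposite directions. With the seed AGCAGCA, which is known for holding back cyclins and Bcl2, miR-195 read 2419, 1803, 2208, 1402 and 1770.2 at day 1 and 4614, 4899, 4662, 4069.6 and 4078 at day 14. The groups were apart and the arrays of day 14, replicate 5 included, lay close together. The difference was 1.24 ± 0.13 (2.36-fold higher, adjusted p = 3.22e-08), almost the same with brightness as a covariate (1.20). Its neighbour miR-497 read 2298, 1857, 2249, 1426 and 1539 at day 1 and 3838, 4351, 3756, 3640.2 and 3851 at day 14 and rose likewise (1.08 ± 0.12, adjusted p = 9.43e-08). miR-15a read 3759, 4457, 4852, 1589.8 and 2229 at day 1 and 5249, 5687, 5683, 5107 and 5272 at day 14. It rose by 0.80 on the log2 scale (adjusted p = 0.0102), with the dim day 1 arrays far below the rest, and the difference was 0.32 without them and 0.01 with brightness in the model.

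On the other side, miR-15b read 6021, 4814, 5007, 6927 and 6288 at day 1 and 4136, 3936, 4396, 3497 and 4499.8 at day 14. No day 14 array reached day 1. The difference was -0.50 ± 0.17 (1.41-fold lower, adjusted p = 0.0149), but -0.01 with brightness as a covariate and 0.58 without scaling. miR-322, with the largest fall of the seed group, is described above. miR-16, which is encoded beside both miR-15a and miR-15b, gave 0.21 ± 0.12 (adjusted p = 0.131, 95% confidence interval -0.03 to 0.46).

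The seed CCCUGAG, first known from lin-4, showed the same kind of split. miR-125b-5p read 4112, 4979, 3352, 6618 and 5319 at day 1 and 9299.9, 9894, 8937, 7910.2 and 6275 at day 14, with day 14 replicate 5 just under day 1 replicate 4. The difference was 0.82 ± 0.24 (1.76-fold higher, adjusted p = 0.00744). miR-125a-5p read 1082, 834, 835, 1652 and 1493 at day 1 and 689, 857, 616, 652 and 881 at day 14. The groups overlapped, and the fall of 0.63 on the log2 scale (adjusted p = 0.0302) became 0.25 with brightness as a covariate, 0.45 without scaling and 0.04 within slide 2. Its call was lost without day 1 replicate 4 or 5 or day 14 replicate 1, 3 or 4 (adjusted p up to 0.0956). With the seed ACCCGUA, miR-100 read 353, 428, 331, 453 and 400.0 at day 1 and 955, 1068, 1064, 908 and 755 at day 14, with no overlap. The difference was 1.27 ± 0.18 (2.41-fold higher, adjusted p = 3.00e-06), and 1.73 with brightness as a covariate. miR-99a rose (0.53 ± 0.17, adjusted p = 0.0117) and miR-99b did not pass (-0.54 ± 0.26). The rising and falling members sit in different clusters: miR-99b, let-7e and miR-125a share one on chromosome 17, where none rose, whereas miR-100 and a copy of miR-125b lie on chromosome 9. The minor arm miR-99b* fell (-0.58 ± 0.23, adjusted p = 0.0366), lost without day 1 replicate 4 or 5 or day 14 replicate 1, 2, 3 or 4 (adjusted p up to 0.131). Over all 7 tested arms the median was -0.49, which turned positive with quantile (0.17), deposited (0.17) and unscaled (0.59) values and with brightness as a covariate (0.38).

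The miR-181 family, known from lymphocyte and vessel development, was the other family with calls in both directions. miR-181c read 525, 482, 534, 336 and 409.7 at day 1 and 630.2, 752, 624, 602 and 619.9 at day 14, a rise of 0.51 ± 0.13 (adjusted p = 0.00177) between groups that did not overlap. miR-181d fell by 0.42 (adjusted p = 0.0185), but had -0.14 with brightness as a covariate and 0.66 without scaling, and lost its call without day 14 replicate 4 (adjusted p = 0.0646). miR-181a (0.26 ± 0.17) and miR-181b (-0.48 ± 0.21) did not pass, and the minor arm miR-181a-1* fell (-0.51 ± 0.16, adjusted p = 0.0107). The median of the 5 arms, -0.42, was 0.66 without scaling and 0.20 with brightness as a covariate.

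**Figure D4:**
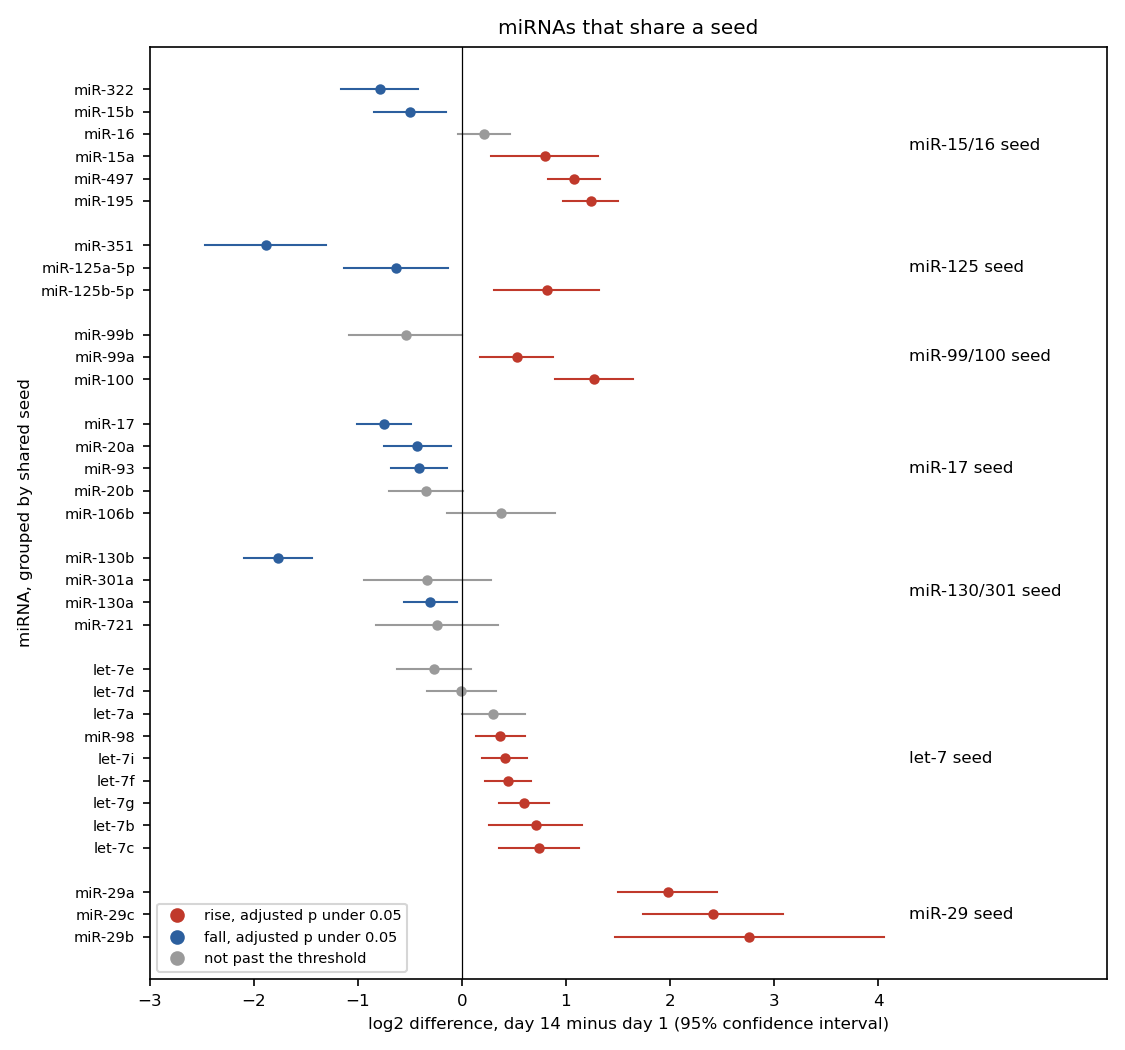
log2 difference, day 14 minus day 1, with 95% confidence intervals, of miRNAs grouped by shared seed; colour gives the call. The miR-29 seed lies wholly on the right (1.98 to 2.76), while the miR-15/16 and miR-125 seeds have members on both sides of 0.

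The miR-26 and miR-101 miRNAs, which repress the Polycomb enzyme Ezh2, rose in 4 of 4 tested names, with a median of 1.17. With brightness as a covariate 1 of the 4, miR-26a, stayed called, and the median was 0.43. miR-101a read 276, 529.9, 559, 62.6 and 138 at day 1 and 1043, 1241, 1184, 1181 and 641 at day 14. The groups did not overlap, although day 1 ran from 62.6 on a dim array to 559. The difference was 2.14 ± 0.49 (4.40-fold higher, adjusted p = 9.32e-04), 1.25 without the dim arrays and 0.44 with brightness as a covariate (adjusted p = 0.339). miR-26a read 13435, 11136, 12433, 10768 and 12319.6 at day 1 and 17943, 20896, 17902, 16371 and 14317 at day 14, also apart. The difference was 0.53 ± 0.12 (1.45-fold higher, adjusted p = 8.97e-04), and 0.71 with brightness in the model. miR-26b (0.84 ± 0.18) and miR-101b (1.49 ± 0.42) had 0.43 and 0.05 under that covariate.

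In the miR-23, miR-27 and miR-24 clusters, which act in endothelium and fat among other tissues, 5 of 7 tested arms rose, with a median of 0.69. miR-27b read 2715, 2707, 3032, 1632 and 2073 at day 1 and 3875, 4232, 3789, 3634 and 3679.6 at day 14, with no overlap. The difference was 0.69 ± 0.13 (1.62-fold higher, adjusted p = 1.43e-04). miR-24 (0.44 ± 0.14), miR-27a (0.80 ± 0.24), miR-24-2* (1.22 ± 0.36) and miR-24-1* (1.32 ± 0.43, lost without day 1 replicate 5 at an adjusted p of 0.0519) rose too. miR-23a (0.25 ± 0.20) and miR-23b (0.40 ± 0.20) did not pass. With brightness as a covariate miR-27a (0.07), miR-24-2* (0.03) and miR-24-1* (-0.07) were not called. Under it miR-24 (0.77), miR-27b (0.48) and miR-23a (0.87) were called as rises. Of the 7 tested arms, 5 were detected on all arrays of both ages.

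Blood and vessel cells were read from lists of their miRNAs. For leukocytes, 9 of 11 listed arms were tested, 5 rose, 1 fell and the median was 0.63, and their summed signal was 5064 to 6637 at day 1 and 6203 to 8861 at day 14. miR-142-5p, from a hairpin made in blood cells, read 118, 274, 350.0, 47.4 and 91.7 at day 1 and 508, 577, 624, 771 and 370.2 at day 14. The groups just failed to touch, the dim arrays being lowest. The difference was 2.01 ± 0.47 (4.03-fold higher, adjusted p = 0.00109) and 0.38 with brightness as a covariate (adjusted p = 0.385). Its partner miR-142-3p rose by 1.91 (adjusted p = 0.0083), with -0.12 under that covariate.

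The inflammation-induced miR-146b read 159, 165, 199.5, 129 and 174 at day 1 and 313, 376, 359, 311 and 308 at day 14. These groups were narrow and apart. The difference was 1.02 ± 0.13 (2.03-fold higher, adjusted p = 4.41e-07), and 0.99 with brightness in the model. miR-146a (0.91 ± 0.16) and miR-155 (0.63 ± 0.20), which respond to the same signals, rose with it, although miR-155 had -0.49 with normexp. miR-223 of myeloid cells (-0.34 ± 0.16), miR-150 of lymphocytes (0.55 ± 0.31) and miR-342-3p (-0.42 ± 0.25) did not pass. Of these, miR-150 passed with brightness as a covariate (1.57, adjusted p = 1.12e-05) and without the dim arrays (0.99, adjusted p = 0.0146). miR-342-5p fell by 0.67 (adjusted p = 0.0458), a call that ended when any of 7 single arrays was left out (adjusted p up to 0.144; day 1 replicates 1, 4 and 5 and day 14 replicates 1 to 4) and that was positive with brightness (0.32), quantile (0.05), deposited (0.04) and unscaled (0.41) values.

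The endothelial miR-126-3p, made from an intron of Egfl7 and needed for vessel integrity, read 29974, 22265, 25338, 19699 and 25011 at day 1 and 44544, 50332, 42832, 39215 and 34800.3 at day 14. All day 14 arrays were above day 1, replicate 5 lowest among them. The difference was 0.80 ± 0.13 (1.74-fold higher, adjusted p = 1.38e-05), and 0.89 with brightness in the model. Of the 4 tested endothelial arms 3 rose, with a median of 0.70: miR-126-5p (1.13 ± 0.28) and miR-222 (0.60 ± 0.24) rose as well and miR-221 did not pass (0.17 ± 0.18). The call of miR-222 ended without any of day 1 replicates 1 to 3 or day 14 replicates 1 to 4 (adjusted p up to 0.0927), and its difference was -0.10 with normexp. With brightness as a covariate 3 of the 4 arms were again called as rises. These were miR-126-3p, miR-222 (1.20) and miR-221 (0.73), while miR-126-5p was not called.

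Red cell miRNAs were bright at both ages, with summed signal from 14783 to 39672 at day 1 and from 35782 to 57667 at day 14, and their part in the other changes was not tested. miR-451 read 25223, 36746, 29984, 14386 and 19040.1 at day 1 and 44862, 37564, 55026, 37914 and 33976 at day 14, and the groups overlapped through day 1 replicate 2. The difference was 0.79 ± 0.22 (1.73-fold higher, adjusted p = 0.00524), 0.45 without the dim arrays and 0.24 with brightness as a covariate, where it was not called. miR-144, cut from the same transcript, read 295, 2619, 2687, 60.2 and 145.4 at day 1 and 1373, 1310.0, 2186, 2628 and 1556 at day 14. Day 1 replicates 2 and 3 lay among the highest of all arrays, and the difference of 1.96 ± 0.95 did not pass (adjusted p = 0.0866). Without either of these it passed, and without the dim arrays it was 0.45. miR-486 had 0.43 ± 0.25.

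In the epithelium list, 10 of 11 arms were tested, 1 rose and 1 fell, and its median of -0.12 was positive under the all-name percentile (0.20), quantile (0.23), cyclic loess (0.14), deposited (0.25) and unscaled (0.96) values and with brightness as a covariate (0.03). miR-200a, which holds back the change of epithelial into mesenchymal cells, rose (0.73 ± 0.23, adjusted p = 0.0105), although it had 0.03 with brightness as a covariate. Of the same family, miR-141 (1.09 ± 0.54), miR-200b (-0.17 ± 0.16), miR-200c (-0.41 ± 0.22) and miR-429 (0.31 ± 0.15) did not pass. miR-205, a miRNA of basal cells, read 40.1, 34.8, 59.0, 69.4 and 70.0 at day 1 and 30.1, 8.30, 35.4, 7.74 and 23.2 at day 14. Day 14 spread widely, from 7.74 to 35.4, and its top just reached day 1. The difference was -1.60 ± 0.40 (3.02-fold lower, adjusted p = 0.00227).

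For multiciliated cells, 5 of 7 arms were tested, and miR-34b-5p (1.25 ± 0.39, adjusted p = 0.0104) and miR-34c (0.70 ± 0.25, adjusted p = 0.023) rose, the latter not without day 1 replicate 4 or 5 or day 14 replicate 1 (adjusted p up to 0.088). Over all tested names 22.1% rose. The list's median of 0.16 was -0.45 with normexp. The opposite arms miR-34b-3p (0.04 ± 0.30) and miR-34c* (0.16 ± 0.25) did not pass. With brightness as a covariate, miR-34b-5p had -0.06 and was not called, while miR-34b-3p was called as a rise (0.92). Under that covariate 2 names of the list were called as rises and 1 as a fall. Without the dim arrays and day 14 replicate 5, none was called as a rise and 1 as a fall. miR-449a, which works with miR-34 in making cilia, read 1339, 1428, 2167, 561 and 898 at day 1 and 697, 627, 715, 509 and 1573 at day 14, and the groups overlapped, with replicate 5 the highest at day 14. Its difference was -0.61 ± 0.33 (adjusted p = 0.117), and it passed without day 14 replicate 5 (-0.88) or without day 1 replicate 4.

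Markers of other tissues were read as a check of the labelled tissue. Striated muscle miRNAs were present in whole lung on every array, as miR-1 shows with 189, 10523, 658, 35.1 and 61.8 at day 1 and 853, 426, 1774, 343 and 1088 at day 14. Day 1 replicate 2 was far above every other array. None of the 4 tested striated muscle arms passed (miR-1 1.28 ± 1.02, miR-133a 0.46 ± 0.81, miR-133b 0.56 ± 0.81, miR-208b -0.73 ± 0.69), their summed signal was 237 to 23736 at day 1 and 738 to 3657 at day 14, and miR-206 was detected on no array. Without day 1 replicate 2, miR-1 (2.55), miR-133a (1.55) and miR-133b (1.65) passed as rises, and without the dim arrays their differences were -0.54, -0.74 and -0.68, and that of the cardiac and slow-fibre miR-208b passed as a fall (-1.87, adjusted p = 0.0267). The part of attached muscle tissue in the other changes was not tested. Of miRNAs that mark other organs, those of brain (miR-124, miR-9) and pancreas (miR-216a, miR-216b, miR-217) were detected on at most 1 array, and liver miR-122 on 2 day 1 and 3 day 14 arrays. miR-192 (0.88 ± 0.15) and miR-194 (0.91 ± 0.12), known from gut and kidney, rose with non-overlapping groups, though their differences were -0.02 with normexp. The brain-enriched miR-219 rose too (1.58 ± 0.62, adjusted p = 0.0358), was detected on 3 day 1 arrays, and lost its call without day 1 replicate 4 or 5 or day 14 replicate 2, 3, 4 or 5 (adjusted p up to 0.144), while miR-128 had -0.03 ± 0.15. None of the 22 embryonic stem cell cluster arms on the array reached the filter.

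Among the single miRNAs with the largest rises, miR-153 read 7.20, 25.5, 41.5, 2.27 and 3.15 at day 1 and 49.9, 67.4, 65.5, 82.7 and 51.2 at day 14. It was detected on 2 of the 5 day 1 arrays, the dim ones being at or near the floor, and the groups did not overlap. The difference was 2.81 ± 0.83 (7.03-fold higher, adjusted p = 0.00733), but 1.66 without the dim arrays (adjusted p = 0.129), -0.16 with brightness as a covariate and -0.13 with normexp. miR-338-3p, a miRNA of neural and epithelial cells, read 117, 159, 148, 65.9 and 83.5 at day 1 and 341.7, 324, 357, 275 and 191 at day 14, apart at both ages. The difference was 1.42 ± 0.23 (2.68-fold higher, adjusted p = 2.11e-05), and 0.78 with brightness in the model. miR-22* rose by 1.16 (adjusted p = 1.65e-06), together with the major arm miR-22 (1.01 ± 0.13). miR-218, from the Slit genes, rose by 1.06 (adjusted p = 0.00369), had 0.17 with brightness in the model, and was lower again at day 42 (mean 414, against 1629.7 at day 14).

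Among falls outside the imprinted clusters and families above, miR-805 read 17.1, 25.6, 19.4, 24.3 and 29.2 at day 1 and 7.29, 6.55, 5.89, 5.09 and 10.3 at day 14. The groups did not overlap, and the difference was -1.73 ± 0.28 (adjusted p = 1.75e-05). miR-680 and miR-877 were detected on all 5 day 14 arrays and on no day 1 array, yet neither difference passed the test (0.07 ± 0.20, adjusted p = 0.776, and 0.53 ± 0.26, adjusted p = 0.0869). Detection is flagged on each array's unscaled signal, and the day 1 arrays were dimmer.

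Both arms of a hairpin come from 1 precursor. Of 60 hairpins with both arms tested, 49 had the same sign on both, and in all 22 with both arms called the direction was the same, 7 upward and 15 downward. The arms often differed in size, as for miR-411 (-1.78) and miR-411* (-3.07) or miR-335-5p (-0.98) and miR-335-3p (-2.58). Of the 139 called names with at least 2 probes read, none had probes of opposite sign. The called signal is the sum over these same probes, so this agreement is largely built in.

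Calls changed when array brightness entered the model. With brightness as a covariate, 38 of the 67 rises and 62 of the 95 falls stayed called in the same direction, and without the dim day 1 arrays 43 and 69 did. Sign turned with the covariate in 8 rises and 18 falls. Names kept as rises under both changes numbered 36, miR-29a, miR-29c, miR-195, miR-497, miR-100, let-7c, miR-126-3p and miR-146b among them, and names kept as falls numbered 62, which include miR-433, miR-127, miR-675-3p, miR-130b and miR-210. Base composition moved with the covariate's effect, and its part was not tested. Over the 186 tested names matched to a RefSeq sequence, the GC share correlated with the difference at r = -0.27, and with the shift that the covariate made at r = 0.52, across names that share the same 10 arrays and are not independent. The matched rises that stayed called had a median GC share of 45.5% (33 names), and those that lost the call 40.9% (20 names).

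**Figure D5:**
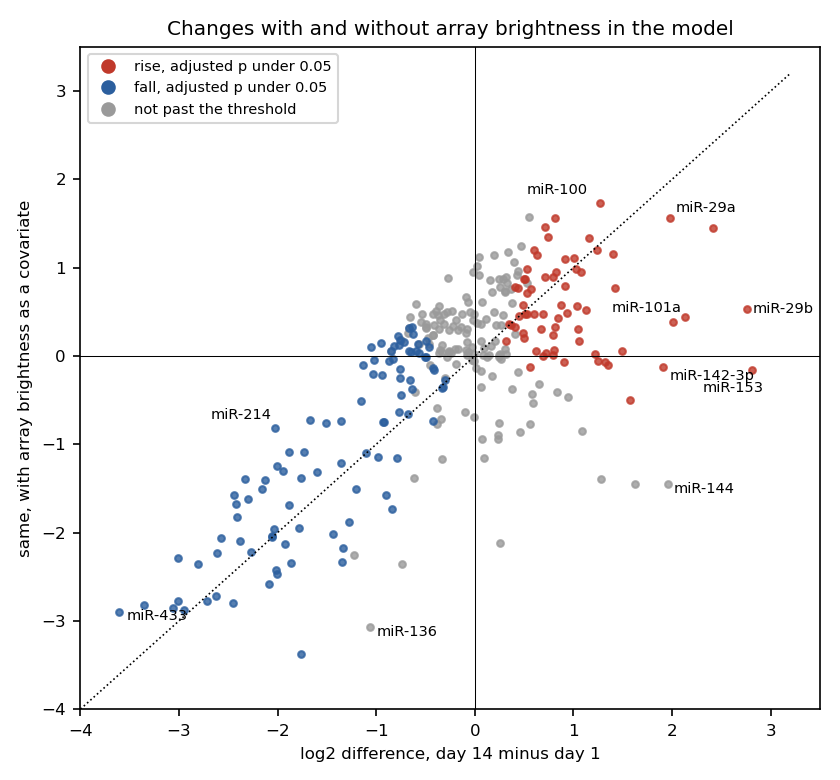
log2 difference, day 14 minus day 1, of the 303 tested miRNAs in the main fit (horizontal) and with array brightness as a covariate (vertical); the dotted diagonal marks equal values. miR-29a (1.98 and 1.57) and miR-433 (-3.60 and -2.89) keep their side, while miR-142-3p (1.91) and miR-153 (2.81) fall to -0.12 and -0.16.

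Set among all ages, most of the called miRNAs moved stepwise. In 42 of the 67 rises and 65 of the 95 falls the group mean moved the same way at each step from day 1 through day 4 and day 7 to day 14. These names were picked for their difference between day 1 and day 14, and the share over all tested names was not taken. Mean array brightness also climbed, from 974 at day 1 to 1240.5, 1504 and 2035 at day 4, 7 and 14. Its part in these courses was not tested. At day 42 the mean lay beyond that of day 14 in 32 of the rises and 77 of the falls. Means of miR-195 were 1921, 3066, 3404, 4464 and 5114 at day 1, 4, 7, 14 and 42, and those of miR-130b were 383, 272, 221.8, 113 and 78.9. miR-126-3p, in contrast, averaged 42345 at day 14 and 41829 at day 42.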

How the data were processed

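RNA of whole mouse lung (100 ng per array, per the labels' protocols) was hybridised to 1-colour Agilent miRNA arrays, and the deposited scanner files hold intensity values that Agilent Feature Extraction 10.7.1.1 made, per the file headers. The total signal per miRNA, an intensity that this software sums over the background-subtracted probes of a name, was used, with its detection flag. The authors' deposited table of log2 values entered only as an alternative; how its values were normalized is not given in the sources used here.

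Each array was divided by its 75th percentile over the 226 mouse names detected on all 24 arrays, relative to the geometric mean over arrays, floored at 2.27 and taken as log2. limma 3.58.1 in R 4.3.3 was fitted over the 24 arrays with 1 mean per age (19 residual degrees of freedom), and a name was called at a Benjamini-Hochberg adjusted p under 0.05 over the 303 tested names. The labels call each array a biological replicate and say nothing of animals or pools, so p-values measure the spread between these arrays. Where several arrays stand at the floor, that spread is in part hidden. The number of arrays limits the precision.

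Members, lists and tests were chosen with earlier results of these data known. Named were, among called names without overlap, the 12 largest rises, the 12 largest falls and the 8 largest falls outside the Dlk1-Dio3 list; names detected on all arrays of one age and none of the other; the 8 brightest names; and, of each list, all tested members where there were at most 8, otherwise the extreme calls and up to 3 that did not pass. Another 13 names (miR-127, miR-322, miR-503, miR-142-3p, miR-146a, miR-146b, miR-155, miR-210, miR-22, miR-17, miR-18a, miR-494 and miR-434-3p) and other list members given with values were chosen after their values were seen. Alternatives were other scalings, normexp (on the median signal and background median, since the files used here hold no mean signal; offset 50), other filters, array weights, brightness, slide or replicate number as terms, the 10 arrays alone and each array left out; dropping the dim arrays with day 14 replicate 5 was chosen after seeing the data. The 39 virus names were not tested.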

Additional observations from a re-analysis of the deposited data

Results flagged for a closer look

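Dixon's test, which asks whether the highest or lowest of 5 arrays stands apart from the rest of its age, marked 24 of 256 groups of the named miRNAs and array measures. Chance marks about 1 in 20. Day 14 replicate 5 was the array that stood apart in 17 of these. It was lower than the other day 14 arrays for miR-29a (1343 scaled intensity), miR-29c (542), miR-29c* (28.0), miR-101a (641), miR-101b (228) and miR-222 (92.5). It was higher than them for the Dlk1-Dio3 miRNAs miR-433 (7.14), miR-431 (39.2), miR-434-3p (201), miR-541 (23.0) and miR-154* (23.4), for the X-linked miR-322 (5115), miR-351 (43.4) and miR-503 (395), and for miR-335-3p (52.8), miR-214* (12.5) and miR-106b* (8.23). In each of the 17 it differed from the other day 14 arrays in the direction of the day 1 mean.

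The other 7 were spread over 5 arrays. Day 14 replicate 2 stood apart for miR-181c (752) and miR-221 (838), and day 14 replicate 1 for miR-219 (61.6) and miR-675-3p (2.84, the only day 14 value above the floor). At day 1, replicate 2 stood apart for miR-128 (139.7), replicate 3 for miR-483 (11.4) and replicate 4 for miR-335-5p (1225).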

How the results depend on the processing

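The 162 calls, 67 rises and 95 falls became 53 calls with 34 rises and 19 falls under normexp. Rises numbered 118 with the percentile over all names, 106 after quantile normalization, 114 from the deposited values and 201 without scaling, which left 33 falls. Changes of at least 2-fold, 79 here, were 160 without scaling and 26 with normexp. The log2 difference named Array brightness, 1.08, was 0.76 over all names (exact permutation p = 0.0714) and 0.24 within slide 2. That in Detected miRNAs per array, 17.8, was 42 within slide 1 and -23 within slide 2. Leaving out each array in turn gave 62 to 78 rises, 81 to 106 falls, 69 to 90 changes of at least 2-fold, 8.2 to 24.95 more detected miRNAs and a brightness difference of 0.91 to 1.22. With replicate number as a block, 161 names were called, 67 of them rises, and 160 calls were kept, so the block changed few calls. Deviations from the age mean correlated between same-numbered day 14 and day 1 arrays at -0.50, -0.39, 0.37, -0.28 and 0.01. These few values do not settle whether the replicate numbers pair the arrays.

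Differences that changed sign are given by setting for miRNAs chosen by the naming rule and called in the main fit or in that setting, and the cause was not tested; turns called in neither are not listed. Under the percentile over all names they were miR-128 at 0.30 and miR-130a at 0.021. With brightness as a covariate they were miR-10b at 0.50, miR-125a-5p at 0.25, miR-142-3p at -0.12, miR-148a at -0.12, miR-153 at -0.16, miR-219 at -0.49, miR-24-1* at -0.072, miR-342-3p at 0.47, miR-342-5p at 0.32, miR-34b-5p at -0.057, miR-483 at 0.047, miR-494 at 0.16 and miR-99b* at 0.14. After cyclic loess it was let-7f at -0.033. In the deposited table they were miR-128 at 0.35, miR-182 at 0.38, miR-342-5p at 0.040 and miR-99b* at 0.0034, and after quantile normalization miR-128 at 0.35, miR-182 at 0.40, miR-342-5p at 0.050 and miR-99b* at 0.0059. Without scaling they were miR-10b at 1.03, miR-125a-3p at 0.59, miR-125a-5p at 0.45, miR-128 at 1.05, miR-130a at 0.78, miR-15b at 0.58, miR-15b* at 0.33, miR-17 at 0.34, miR-181a-1* at 0.57, miR-181b at 0.60, miR-181d at 0.66, miR-182 at 0.82, miR-18a at 0.18, miR-199a-3p at 0.75, miR-223 at 0.74, miR-322 at 0.29, miR-335-5p at 0.10, miR-342-3p at 0.66, miR-342-5p at 0.41, miR-483 at 0.43, miR-494 at 0.36, miR-503 at 0.24, miR-720 at 0.72, miR-99b at 0.54 and miR-99b* at 0.51. With normexp they were miR-10a* at -0.66, miR-145* at -0.72, miR-153 at -0.13, miR-155 at -0.49, miR-192 at -0.025, miR-194 at -0.016, miR-219 at -0.18, miR-222 at -0.10, miR-24-1* at -0.22, miR-29c* at -0.34 and miR-467e at -0.48. Within slide 2, which held a single array of each age, they were miR-125a-5p at 0.039, miR-148a at -0.16 and miR-99b* at 0.0088. Of the other miRNAs given above, those that turned were let-7d at 1.07, let-7e at 0.82, miR-19b at 0.98, miR-20a at 0.65, miR-25 at 0.73, miR-200b at 0.91 and miR-200c at 0.67 without scaling, and let-7d at 0.48, miR-19a at -1.16 and miR-30e at -0.070 with brightness.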

Other observations

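Several other groups of miRNAs changed little between day 1 and day 14. In the Sfmbt2 cluster, a rodent array of repeated hairpins inside an intron of an imprinted gene, 14 of 39 names on the array were tested, 1 rose and none fell, with a median difference of 0.10 that was -0.63 with normexp and -0.05 without the dim day 1 arrays. The rise was that of miR-467e, which read 30.4, 32.4, 31.8, 13.2 and 17.5 at day 1 and 41.4, 46.5, 48.1, 37.7 and 34.5 at day 14. The groups did not overlap, but the miRNA was detected on 3 day 1 arrays, and its difference of 0.81 ± 0.20 (adjusted p = 0.00159) was 0.33 when brightness entered the model and -0.48 with normexp. In the miR-183 cluster, made in sensory and some epithelial cells, none of 4 tested names passed; miR-96 came nearest (0.84 ± 0.36, adjusted p = 0.0564), beside miR-182 (-0.27 ± 0.15), miR-183 (0.07 ± 0.14) and miR-183* (0.11 ± 0.29).

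Of the miRNAs in the Hox clusters, whose position along the body axis they share, the minor arm miR-10a* rose (0.49 ± 0.14, adjusted p = 0.0052), although it had -0.66 with normexp, and miR-10a (0.29 ± 0.19) and miR-10b (-0.05 ± 0.19) did not pass. None of the 4 probes of miR-10a* reached a mean of 4 times the floor at either age. Of these 3 names, 2 were detected on all arrays of both ages. In the family of miR-148 and miR-152, miR-148b (0.49 ± 0.13, adjusted p = 0.00365) and miR-148a (0.56 ± 0.23, adjusted p = 0.0486) rose and miR-152 had 0.25 ± 0.15. The call of miR-148a was lost in 8 of the 10 fits that leave out 1 array (all but those without day 1 replicate 2 or 3, adjusted p up to 0.185), and the family's median of 0.49 was -0.01 with brightness as a covariate. Of the remaining members of the families described above, miR-15b* fell (-0.75 ± 0.19, adjusted p = 0.00237), while miR-301a (-0.33 ± 0.29) and miR-125a-3p (-0.49 ± 0.30) did not pass. miR-720, among the 8 names of highest mean signal, had -0.36 ± 0.16 (adjusted p = 0.0575). miR-20a, of the miR-17 clusters, lost its call (adjusted p = 0.0238) without day 1 replicate 1 or 3 or day 14 replicate 1 or 4 (adjusted p up to 0.0749).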
